A study of Caenorhabditis elegans with 4 samples.

Results

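The regions described here are the places on the Caenorhabditis elegans genome where LIN-35 was called as bound in both of 2 chromatin immunoprecipitation sequencing (ChIP-seq) replicates. They are the peaks of the authors' combined list that overlap, by at least 1 bp, a peak of the replicate 1 list and a peak of the replicate 2 list. This rule gave 465 of 5374 combined peaks (8.65%; 95% Wilson interval 7.93 to 9.43), called shared peaks below. They held 274 kb of the 1084 kb covered by the combined list. They were chosen by the authors' calls in all 3 lists, so their number, strength, width and replicate overlap are given as descriptions without tests.

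The worms were young adult hermaphrodites of strain YL468, raised at 20 degrees Celsius and fixed with 2% formaldehyde. They carry unc-119(ed3) on chromosome III and the transgene vrIs93, in which the mex-5 promoter drives LIN-35 fused to GFP and FLAG, with the lin-35 3′ UTR and an unc-119 rescue gene. The 2 precipitated samples were made with an antibody against GFP, the 2 inputs are whole-lysate DNA, and all 4 samples have this 1 genotype, with no untagged strain among them. The genotype lists no mutation of native lin-35, and the labels record that the strain was not outcrossed. The labels do not say if separate cultures were used for the replicates.

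LIN-35 is the worm's retinoblastoma (Rb) family protein. Rb proteins do not bind DNA by themselves. They are brought to promoters by E2F and DP transcription factors, in the worm EFL-1 and DPL-1, and as part of the DREAM complex they repress genes, among them cell cycle genes. In worms, loss of lin-35 is known to derepress germline genes in somatic cells, and the mex-5 promoter restricts the tagged protein mainly to the germ line. Since whole worms were lysed, binding in germ cells of different stages cannot be told apart. Each region is given by its position on the WormBase WS220 build, and the genes and sequences under the peaks were not analysed here.

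The strongest calls of the combined list were nearly all shared. Peaks were ranked by the authors' q-value, with rank 1 for the lowest q. Of the 100 best combined peaks 97 were shared (91.5% to 99.0%), and of the next 100, 87 were. The share then declined to 65 of the peaks ranked 201 to 300, 93 of the 200 ranked 301 to 500, 79 of the 250 ranked 501 to 750 and 23 of the 250 ranked 751 to 1000. Past rank 1500 there was 1 shared peak among 3874. The median shared peak had rank 273 and a combined q of 5.29e-12, and the weakest had rank 1547 and q = 0.000206. The 558 peaks of replicate 2 were mostly used up, since 474 (84.9%; 81.7 to 87.7) lay in shared peaks. Of the 3804 peaks of replicate 1, 492 (12.9%; 11.9 to 14.0) did.

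**Figure D1:**
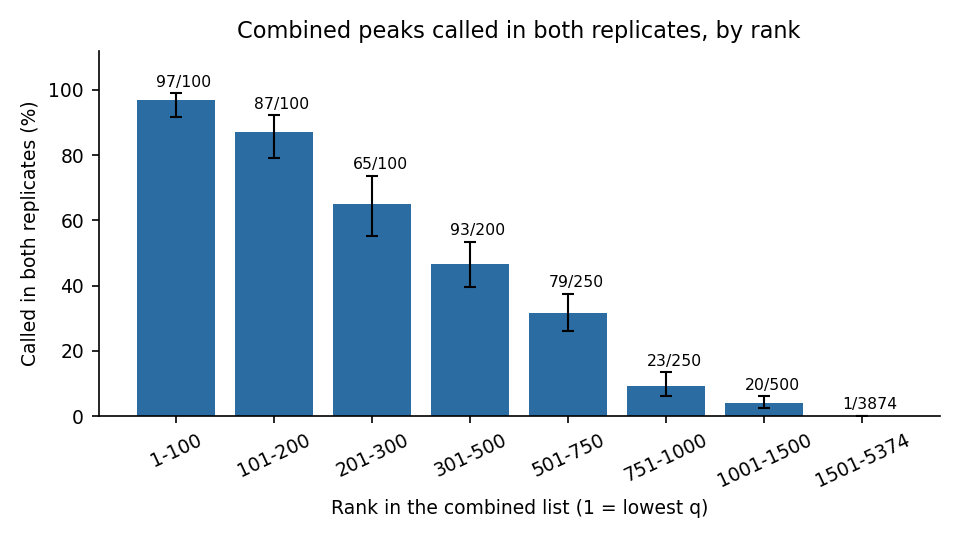
Percentage of combined peaks called in both replicates (vertical axis) in bands of rank in the combined list (horizontal axis), with 95% Wilson intervals as error bars and the numbers of peaks above the bars. The share falls from 97 of the 100 best peaks to 1 of 3874 past rank 1500.

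The best combined peaks that fell outside the set had a call in replicate 1 and none in replicate 2. The first was on chromosome I at 9879314 to 9883710, with combined rank 6 and replicate 1 rank 8, and the nearest replicate 2 peak was 90453 bp away. The next was on X at 16056020 to 16056749, with ranks 58 and 43, and replicate 2 had nothing within 149096 bp. The third was on chromosome I at 9979714 to 9980095, with ranks 100 and 66, at 8716 bp from a replicate 2 peak. In these 3 cases the missing call was thus not a near miss.

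The size of the set depended on the overlap rule. It fell from 465 to 338 regions with a 50% reciprocal overlap and to 332 with midpoints within 100 bp. Just inside the 1 bp threshold, the shared peak on chromosome III at 9746648 to 9746882 rested on a replicate 1 call of 6 bp. That on V at 9382603 to 9382858 rested on a replicate 1 call of 9 bp, and that on V at 4147633 to 4148176 was met by 14 bp of a replicate 1 call. Just outside it, the combined peak on II at 15025182 to 15025296 missed a replicate 2 peak by 80 bp. Those on V at 10023211 to 10023490 and at 3712961 to 3713109 missed by 199 and 206 bp. The replicate 2 calls nearest to the peak on II and to that at 3712961 overlapped neighbouring shared peaks. Among 2670 combined peaks with a call in a single replicate, 1 lay within 100 bp of a call in the other and 50 lay within 500 bp. Combined peaks were never under 200 bp apart, so these low counts cannot show how often the threshold decided a region.

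Numbered from 1 to 465 in each replicate by rank, the 10 best places had 5 regions in common, the 25 best had 11, the 50 best had 25, the 100 best had 58 and the 200 best had 133. Such counts rise with the number of places taken even for unrelated orders, and no expected count was worked out. Regions picked for a low rank in both replicates, and so alike by that choice, show which ones stood high in each. The 5 shared peaks whose worse replicate rank was lowest ranked 2, 3, 4, 5 and 7 in replicate 1. The best of these was on chromosome III at 3866456 to 3867801, with q = 6.53e-83 and rank 2 in replicate 1 and q = 1.05e-39 and rank 1 in replicate 2. Next in this order came regions of III at 10753830 to 10755401, ranked 19 and 11 in replicates 1 and 2, and of III at 10224461 to 10225353, ranked 16 and 19. After them came II at 14251175 to 14251996, ranked 20 and 12, IV at 17279833 to 17281872, ranked 23 and 2, and III at 10904086 to 10905591, ranked 25 and 20. Chromosome III held 6 of these 10 regions, and 110 of all 465 shared peaks (23.7%). Among the 6, the regions at 10753830 to 10755401 and at 10758850 to 10759440 lay 3448 bp apart. On chromosome I, the best shared peak lay at 12966383 to 12967293, with ranks 24 and 34.

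Over all 465 shared peaks the Spearman correlation of the replicate ranks was 0.55 and Pearson's r was 0.42. These describe regions that share 2 libraries and are not independent, so no p is given. The median difference in place was 78. It was within 50 places for 152 regions and over 200 places for 49. Within the stronger 232 shared peaks by combined rank the correlation was 0.30, and within the weaker 233 it was 0.16. Each part spans a narrower range of ranks, which by itself lowers a correlation, so these values cannot be set against 0.55. By chromosome the correlation ranged from 0.36 on II to 0.77 on X, where there were 33 regions. Those of X form a strong and a weak group, described below, and such a division by itself raises a correlation.

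The combined rank followed replicate 1 more closely than replicate 2. Spearman's correlation over the shared peaks was 0.93 with replicate 1 and 0.69 with replicate 2. A q below 1e-05 was reached by 292 shared peaks in replicate 1, by 102 in replicate 2 and by 96 in both. At the other end, 51 shared peaks had a q above 0.001 in both replicates. The combined q was below both replicate values for 461 of the 465. Read depth is unknown and may differ between the lists, so these q-values do not compare the strength of binding between them.

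Single regions departed widely from this order. The best combined peak, on II at 8418688 to 8421614, ranked 1 in replicate 1 (q = 3.58e-112) and 420 in replicate 2 (q = 0.00369). On III at 1859527 to 1859911 the ranks were 15 and 189, and on X at 9465502 to 9466330 they were 18 and 182. In the opposite direction, the region on III at 7101688 to 7102260 ranked 2651 in replicate 1, where the call was 81 bp wide with q = 0.00599, and 22 in replicate 2, where it was 640 bp wide. The region on II at 6967909 to 6968674 ranked 3736 and 102, and that on V at 9382603 to 9382858 ranked 3328 and 161. These regions were chosen for their difference, and with 1 library per replicate list no test of it was possible.

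**Figure D2:**
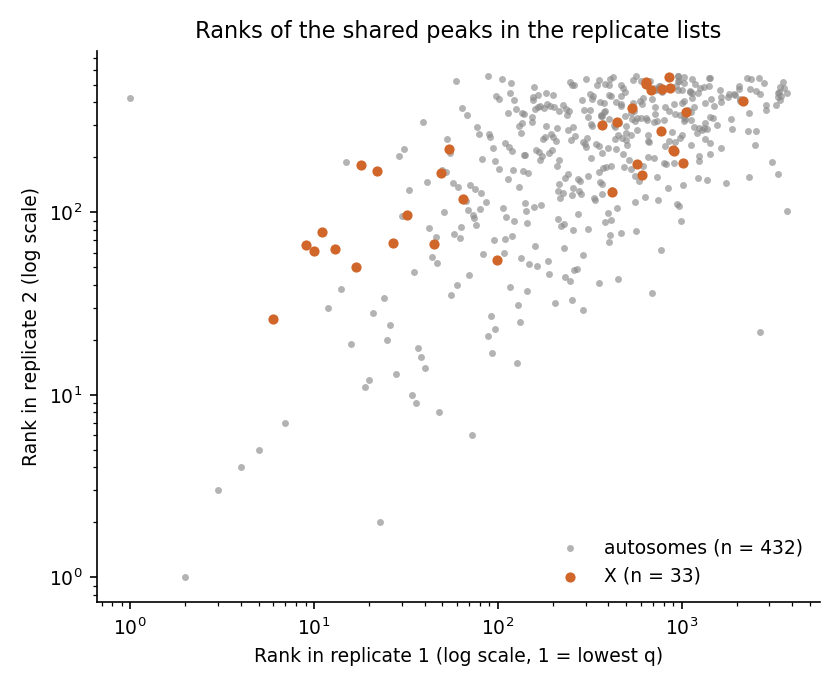
Rank of each shared peak in replicate 1 (horizontal axis) and in replicate 2 (vertical axis), both on log scales, where a split region takes its best rank; grey points are 432 autosomal regions and orange points 33 regions of X. The point at the upper left has ranks 1 and 420, and the X points fall into a strong and a weak group.

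Shared peaks on the X chromosome fell into a strong and a weak group, a division made after their values were seen. Of 33 X regions, 15 had combined ranks from 10 to 84 and the other 18 ranked from 246 to 1442. Between these ranks lay 133 autosomal shared peaks and no shared peak of X, and 3 combined peaks of X that were not shared. In 4 steps of 25% of the shared peaks by combined rank, X held 15 of the strongest 117, then 1, 7 and 10 of 116 each.

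The strong X regions stood higher in replicate 1 than in replicate 2. Their replicate 1 ranks ran from 6 to 99 with a median of 22, and their replicate 2 ranks from 26 to 222 with a median of 68. Numbered by place among the shared peaks, 14 of the 15 came earlier in replicate 1, and the median places were 21 and 68. Of the 67 autosomal shared peaks in the same range of combined rank, 36 came earlier in replicate 1, with median places of 45 and 47. The best X region, at 14525364 to 14526344, ranked 6 in replicate 1 and 26 in replicate 2. The exception, at 11605568 to 11606384, ranked 99 and 55. In the weak group 9 of 18 came earlier in replicate 1. Strong X regions had a median width of 817 bp and weak ones of 397 bp.

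Shared peaks were wide, and widest where they were strong. In the combined list they spanned 200 to 2927 bp, with a median of 458 bp and quartiles of 346 and 711 bp. The median was 183 bp for combined peaks called in replicate 1 alone. It was 248 bp for those in replicate 2 alone and 83 bp for those in neither. These groups had median combined ranks of 2026, 1351 and 3888, against 273 for shared peaks. Width was not compared at like strength. The widest peak called in replicate 1 alone, of combined rank 6, was wider than any shared peak, at 4397 bp. From the strongest to the weakest 25% of the shared peaks, in 4 steps, the median width was 758, 538, 421.5 and 314 bp. Only 49 exceeded 1000 bp and 6 exceeded 2000 bp. The widest were on II at 8418688 to 8421614, on V at 14686421 to 14689012 (2592 bp) and on X at 16929506 to 16931980 (2475 bp). The narrowest were on V at 11110072 to 11110271 and on III at 9758835 to 9759034, each 200 bp, and on V at 5777021 to 5777224 (204 bp).

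A shared region was usually wider in the combined list than in either replicate. The median replicate 1 peak was 371 bp wide and the median replicate 2 peak 305 bp. The combined peak was wider than its replicate 1 peak in 415 regions and wider than its replicate 2 peak in 427. The median ratio was 1.21 to replicate 1 and 1.40 to replicate 2. Replicate 1 peaks were the wider of the pair in 293 regions and replicate 2 peaks in 172. The very narrow calls came from replicate 1, in which 11 shared regions had a peak under 100 bp, down to 6 bp, whereas the narrowest replicate 2 peak was 131 bp. Widths in the replicates had a Spearman correlation of 0.51 across regions.

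**Figure D3:**
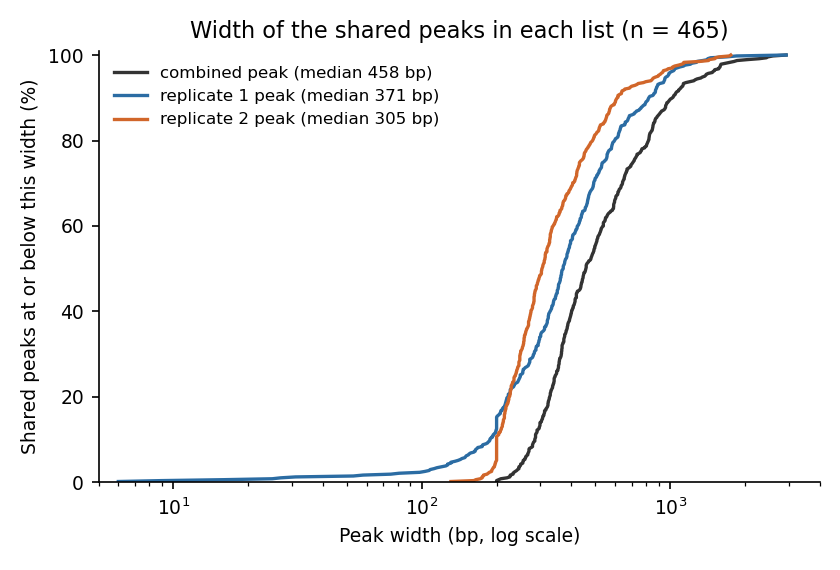
Cumulative percentage of the 465 shared peaks (vertical axis) by peak width in bp (horizontal axis, log scale) in the combined list and for the best overlapping peak of each replicate. Medians are 458, 371 and 305 bp, and the replicate 1 curve has a tail of calls under 100 bp.

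The edges showed that the combined peak is not simply the union of the replicate peaks. It contained every overlapping call of both replicates in 278 regions, while in the others a replicate peak reached past it, by up to 452 bp. Its edges matched the outermost replicate edges exactly in 20 regions. Its start equalled a replicate 1 start in 69 regions and a replicate 2 start in 17. Over all shared regions its width was a median of 1.03 times the outer span of the replicate calls. Midpoints of the best replicate 1 and replicate 2 peaks were a median of 52.5 bp apart. They lay within 100 bp of each other in 326 regions and over 500 bp apart in 9.

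Most shared regions were a single call in each replicate. This held for 437 of 465, or 94.0% (91.4 to 95.8). The remaining 28 were split, 18 in replicate 1 only, 3 in replicate 2 only and 7 in both. Split regions were wide and strong, with a median width of 1264 bp and a median combined rank of 115.5, against 442 bp and rank 285 for single ones. Of the 49 regions over 1000 bp, 19 were split. By chromosome, none of the 49 shared peaks of I was split, 7 of 90 on II and 6 of 110 on III. The counts were 9 of 97 on IV, 4 of 86 on V and 2 of 33 on X. These counts are small, and their differences were not tested.

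The most finely split regions held 3 replicate 1 peaks and 2 replicate 2 peaks. On X at 16929506 to 16931980 the best replicate 1 peak lay at 16931228 to 16931989 (rank 65) and the best replicate 2 peak at 16929620 to 16930185 (rank 118), with midpoints 1706 bp apart. The strongest calls of the replicates thus lay at opposite ends of that region. On V at 14686421 to 14689012 the best peaks were at 14688167 to 14688882 (rank 92) and 14687859 to 14688770 (rank 27), with midpoints 210 bp apart. The reverse case, a replicate 2 peak reaching into 2 shared peaks, occurred once. That peak, on V at 10536529 to 10537123 with rank 155, met shared peaks at 10536362 to 10536671 and at 10536911 to 10537195.

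In 12 shared regions the replicate calls did not touch each other and were linked only by the combined peak. The gap between them ran from 5 to 251 bp with a median of 81 bp. These regions were of middle to low strength, with combined ranks from 273 to 727, and 443 to 883 bp wide. In 9 of them the replicate 1 rank was past 1000. The widest gap was on I at 9988245 to 9989118, where replicate 1 had a peak at 9988245 to 9988560 and replicate 2 at 9988812 to 9989125. The strongest of them was on IV at 6792533 to 6793389, ranked 384 in replicate 1 and 502 in replicate 2, with a gap of 201 bp. When the replicate calls had to overlap each other, 453 regions remained in the set.

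Along the genome the shared peaks were scattered, at 4.65 per Mb, with a minority in close pairs. The distance between successive shared peaks had a median of 123 kb and quartiles of 29.0 and 270 kb. It was under 10 kb for 79 of 459 distances and under 1 kb for 22. The closest pair was on II, where 222 bp separated 13521685 from 13521908. Taking distances under 10 kb as linked, 320 shared peaks stood alone, 110 were in pairs and 35 were in 11 runs of 3 or more. Chromosome III held 5 of these runs, and chromosomes II, IV and V held 2 each. Chromosome X had no distance under 10 kb among 32, and its median distance was 450 kb, against 67.8 kb on III and 182 kb on I. Spacing follows in part from the number of shared peaks, which was lowest on X.

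**Figure D4:**
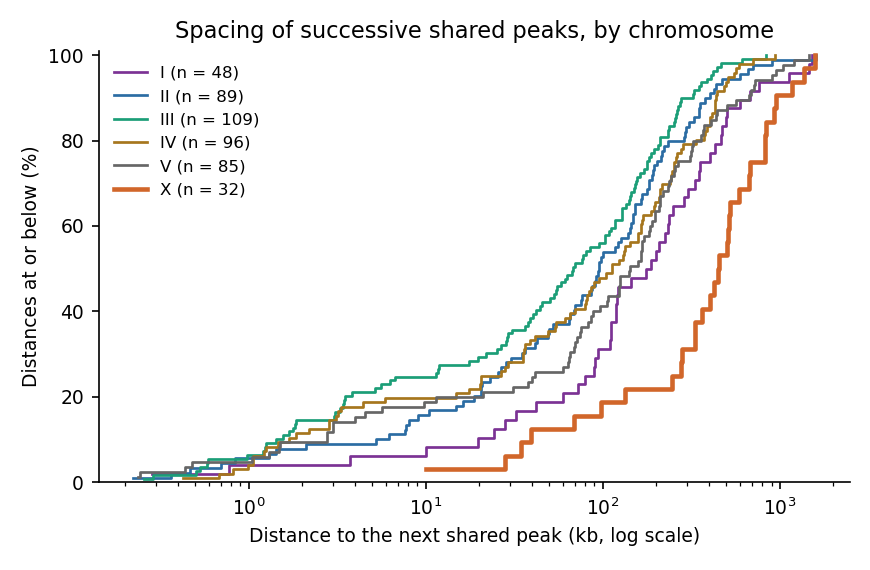
Cumulative percentage of distances between successive shared peaks (vertical axis) by distance in kb (horizontal axis, log scale), one line per chromosome with its number of distances. The line of X lies farthest to the right, with a median of 450 kb, and that of III farthest to the left through most of the range, with a median of 67.8 kb.

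The longest run was on III at 10742427 to 10759440, where 5 shared peaks lay within 17.0 kb. It contained the peaks of combined rank 3 and 12 and weaker ones of rank 247, 523 and 1031. The tightest 3 shared peaks were on III at 6969615 to 6972212, within 2598 bp, with combined ranks 82, 727 and 218. The next were on V at 4754104 to 4758845, within 4742 bp, and on IV at 385397 to 390691, within 5295 bp. The run with the best-ranked shared peak of chromosome III, at 3862928 to 3869872, held 3 regions. The longest stretches without a shared peak were on II from 1323897 to 2920895, on X from 4209638 to 5801061 and on I from 4790222 to 6317111. They held 50, 59 and 64 combined peaks that were not shared, so these stretches were not free of calls.

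Shared peaks more often had close neighbours in the combined list than other peaks did. Another combined peak of any kind lay under 1 kb away for 203 shared peaks, or 43.7% (39.2 to 48.2). This held for 24.3% (23.2 to 25.6) of the other 4909. The median distance to the nearest combined peak was 1297 bp for shared and 3393 bp for other peaks. Peaks called in replicate 2 alone were between the groups, at 37.7% of 77 (27.7 to 48.8). No test was made of this, since the calls chose the regions. The other peaks were also mostly weaker. Their median combined rank was 2026 with a call in replicate 1 alone, 1351 in replicate 2 alone and 3888 in neither, against 273 for shared peaks. Closeness was not compared at like strength.

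By chromosome, III carried the most shared peaks and X the fewest. Chromosome III had 110, or 23.7% (20.0 to 27.7), which was 1.72 times its share of length (adjusted p = 3.29e-08, two-sided exact binomial test, Benjamini-Hochberg over 6 chromosomes). The tests of position here and below count each peak as separate, which close neighbours may not be. On III, 27 of 109 distances between shared peaks were under 10 kb. Chromosome II had 90, 1.27 times its share (adjusted p = 0.0251, exact binomial test). Other combined peaks were close to this, with 18.6% on II against 19.4% of shared peaks (ratio 1.04, adjusted p = 0.938, Fisher's exact test). Chromosome IV had 97 and chromosome V had 86, at 1.20 and 0.885 of their shares, neither past the threshold of 0.05 (adjusted p = 0.0696 and 0.210, exact binomial test). Chromosome I had 49, 0.700 of its share (adjusted p = 0.0105, exact binomial test), and X had 33, 0.403 of its share (adjusted p = 3.99e-10). On I, too, other combined peaks had a similar share, 10.8% against 10.5% of shared peaks (ratio 0.972, adjusted p = 0.938, Fisher's exact test). The calls on I and II were lost with a 50% reciprocal overlap (adjusted p = 0.254 and 0.0673, exact binomial test) and in the better 50% of each list (adjusted p = 0.0528 and 0.190).

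Shared and other combined peaks differed in chromosome over the whole list, but neither difference passed within its best 25%. X held 7.10% (5.10 to 9.80) of shared and 14.2% (13.3 to 15.2) of other combined peaks (ratio 0.498, adjusted p = 3.17e-05, two-sided Fisher's exact test over 6 chromosomes). For chromosome III the shares were 23.7% and 18.9% (ratio 1.25, adjusted p = 0.0491, Fisher's exact test), and no other chromosome passed. When only the best 25% of combined peaks were compared, which hold 462 of the shared peaks, X had 6.93% of shared and 7.26% of other peaks (ratio 0.953, adjusted p = 1, Fisher's exact test). Chromosome III then had 23.6% and 23.7%.

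Shared peaks of the autosomes lay more often in chromosome centres than length alone gives. The centre was taken as 25% to 75% of the length, by peak midpoint. Of 432 autosomal shared peaks 250, or 57.9% (53.2 to 62.4), were central (p = 0.00124, two-sided exact binomial test against 50%). Among the other 4210 autosomal combined peaks 56.5% (55.0 to 58.0) were central. The difference of 1.36 percentage points had an interval of -3.57 to 6.17 and did not pass the threshold (p = 0.610, two-sided Fisher's exact test). Chromosome V contributed most, with 59 of 86 central, or 68.6% (58.2 to 77.4; adjusted p = 0.00439, exact binomial test), and no other chromosome passed. Of the other combined peaks of V, 61.0% were central, which lies within that interval. Chromosome I went the other way, with 20 of 49 shared peaks central (40.8%). The central share was 53.3% on II, 59.1% on III and 59.8% on IV. Without V the share over the other autosomes was 55.2% (p = 0.0597, exact binomial test). With the centre narrowed to 33.3% of the length, the share over all autosomes was 35.9% (p = 0.262, exact binomial test).

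Among the shared peaks the central share was highest in the weakest 25%, a comparison made after the data were seen and not tested. In the strongest 25% of shared peaks, 52 of 102 autosomal regions were central, or 51.0% (41.4 to 60.5). In the following steps of 25% the shares were 57.4% (48.3 to 66.0) and 54.1% (44.8 to 63.2). In the weakest 25%, 73 of 106 were central, or 68.9% (59.5 to 76.9). The shares did not rise steadily, and the intervals of the strongest and weakest 25% overlapped slightly. The median width was 440.5 bp in autosome centres, 469.5 bp in left arms and 455.5 bp in right arms.

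The arms were unequal on chromosomes II and V, in opposite directions. On II the left 25% held 7 shared peaks and the right 25% held 35 (adjusted p = 9.06e-05, two-sided exact binomial test over 6 chromosomes). On V the left held 22 and the right 5 (adjusted p = 0.00454, exact binomial test). The other chromosomes did not pass, with 20 left and 9 right on I, 15 and 30 on III, 24 and 15 on IV and 7 and 10 on X. Combined peaks that were not shared leaned the same way, with 132 left and 251 right on II and 199 and 161 on V. The call on V was lost with a 50% reciprocal overlap (73.7% left, adjusted p = 0.127, exact binomial test), with midpoints within 100 bp (68.8%, adjusted p = 0.315) and in the better 50% of each list (76.9%, adjusted p = 0.277).

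**Figure D5:**
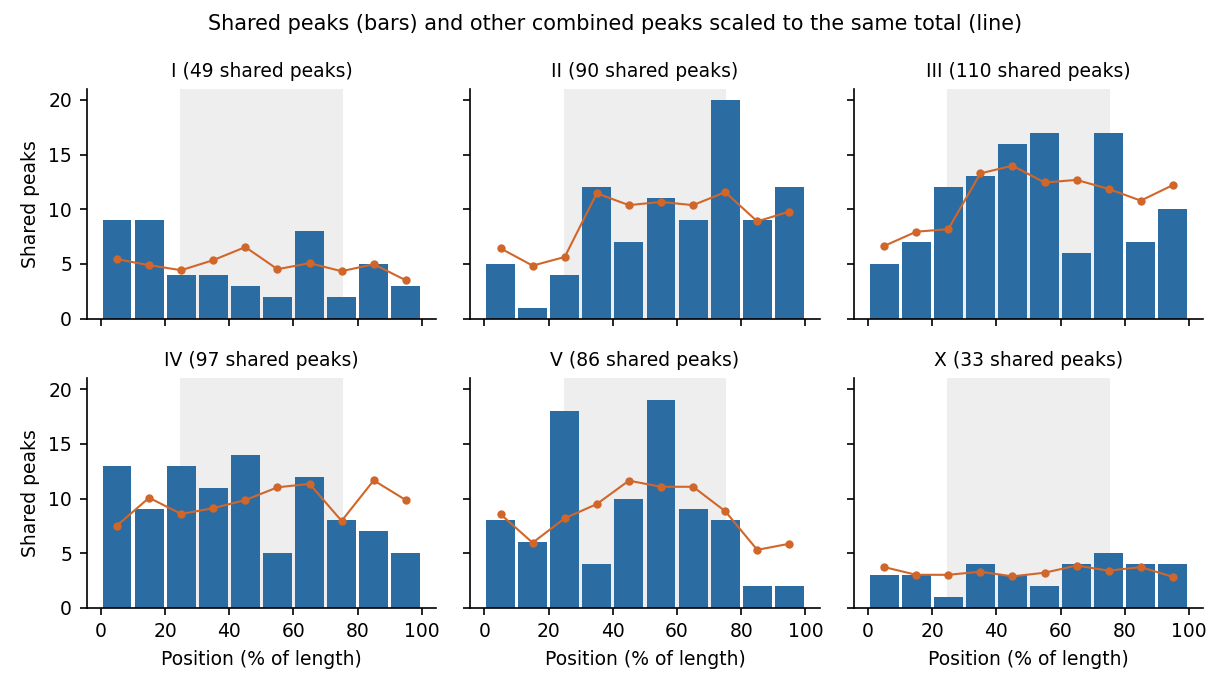
Number of shared peaks (bars, vertical axis) in 10 equal bins of the length of each of the 6 chromosomes (horizontal axis, percent of length), with the other combined peaks scaled to the same total as a line and the central 25% to 75% shaded. On V the last 2 bins hold 2 shared peaks each, and on II the fullest bin, the one before the last 2, holds 20.

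The fullest window of 1 Mb was on II from 11 to 12 Mb, with 16 shared peaks among 88 other combined peaks. Next was III from 10 to 11 Mb, with 15 among 69 others, which includes the run of 5. Of 103 such windows 96 held at least 1 shared peak. On V the fullest of 10 equal bins held 18 and 19 regions. The 5 shared peaks in the right arm of V included a strong one at 18967546 to 18968032, with combined rank 18.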

How the data were processed

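ChIP-seq peaks of LIN-35 were taken from 3 deposited lists, 1 for each precipitated sample and 1 combined. Per the file headers, the authors called peaks with PeakSeq, coordinates are on WormBase WS220 after a liftover, and each peak has a q-value. Not given in the sources used here are the aligner, the control, the version of PeakSeq and how the lists were combined. Read depth is unknown, so ranks by q-value were made within 1 list. Where q-values of different lists are set side by side, they were not adjusted for depth.

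The overlap rule was applied in Python 3.11.15 with pandas 2.3.3 and scipy 1.17.1, and bedtools 2.31.1 gave the same 465 regions. A split region took its lowest-q replicate peak. Chromosome length was the highest peak end in any list. Intervals are Wilson 95% intervals, with Newcombe's for the difference of shares, and cover counting error only; peaks are not independent replicates. The overlap rule was checked on planted peaks and the position tests on simulated independent counts. These checks leave out close neighbours such as those among the shared peaks. Named regions follow a rule on worse rank, chromosome, rank difference, width, splitting, threshold and spacing. Regions, rules and tests were chosen with earlier results of these data known. Other regions named (the gapped calls, the X groups and their exception, windows, runs and chromosome ends) were chosen after their values were seen. Alternatives tried were 50% reciprocal overlap, midpoints within 100 bp, the better 50% of each list, each replicate alone, other zones and, added after seeing the data, replicate calls that overlap each other and the 465 best combined peaks. Inputs and genes were not analysed here.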

Additional observations from a re-analysis of the deposited data

Results flagged for a closer look

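The arms of chromosome V differed between shared and other combined peaks, a comparison added after the data were seen. Of the shared peaks in the outer 25% at either end, 81.5% (63.3 to 91.8), or 22 of 27, lay on the left. Of the other combined peaks there, 55.3% (50.1 to 60.3), or 199 of 360, did (adjusted p = 0.0496, two-sided Fisher's exact test over 6 chromosomes). This test counts each peak as separate, though 2 runs of 3 shared peaks, within 7.3 and 4.7 kb, lay in the left arm. A value so near the threshold of 0.05 is thus weak. Within the best 25% of combined peaks the excess on the left was 9.81 percentage points and did not pass (adjusted p = 0.820, Fisher's exact test). On chromosome II the left share was 16.7% of shared and 34.5% of other peaks (adjusted p = 0.0700, Fisher's exact test).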

How the results depend on the processing

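The number of shared peaks was 338 with a 50% reciprocal overlap, 332 with midpoints within 100 bp and 249 in the better 50% of each list. It was 542 without replicate 1 and 3058 without replicate 2. Spearman's correlation of the replicates rose from 0.55 to 0.65 when a 50% reciprocal overlap was required. The central share lost its call in the central 33.3% (35.9%), in the better 50% of each list (55.1%), without chromosome V (55.2%) and for the 465 best combined peaks (52.8%); with 1 replicate alone it was 56.0% and 59.0%. Against length, 4 chromosomes passed, and 2 did in the better 50% of each list or with a reciprocal overlap. Against other combined peaks, 2 chromosomes passed (X and III). None (0) did in the best 25% of the combined list, where the chromosome III ratio turned to 0.995, or in the better 50% of each list. With a reciprocal overlap, midpoints within 100 bp, without replicate 1 or with replicate calls that overlap each other, 1 passed; without replicate 2, 3 did. Unequal arms were called on 2 chromosomes. The number was 1 with a reciprocal overlap, midpoints within 100 bp or the better 50% of each list. It was 2 without replicate 1, 4 without replicate 2 and 3 with arms of 33.3%. Chromosome I passed with those wider arms (70.3% left, adjusted p = 0.0401, exact binomial test). The arm difference between shared and other peaks, called on 1 chromosome, was called on 0 in the best 25% of the list, in the better 50% of each list, with a reciprocal overlap, with either replicate alone, with replicate calls that overlap each other and with arms of 33.3%, and on 2 for the 465 best combined peaks. With midpoints within 100 bp the arm difference was called on II instead (-22.8 percentage points on the left, adjusted p = 0.0406, Fisher's exact test). There V did not pass (12.1 percentage points, adjusted p = 0.767, Fisher's exact test). The causes were not tested. No paired analysis was possible because the inputs, which share the replicate numbers, have no peak list here. Without read depth, absence from replicate 2 shows a region as not detected, not as free of LIN-35.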

Other observations

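Shared peaks reached close to some chromosome ends. The first on chromosome II began at position 133 and ended at 500, and it was also the weakest of all by combined rank (1547). The first began at 8005 on V, 16762 on I, 349486 on III, 385397 on IV and 410023 on X. At the right ends the last shared peak lay 135 kb from the highest peak end of any list on III, 184 kb on IV, 213 kb on II, 679 kb on X, 1107 kb on I and 1270.1 kb on V. The comment lines of the combined list name 2 peaks whose structure the liftover changed. Both are shared peaks, on II at 5661062 to 5662484 with combined rank 22 and on III at 835594 to 836131 with rank 203.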
